A study of Oryza sativa with 2 samples.

Results

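Respiratory burst oxidases (Rboh proteins, the NADPH oxidases of plants) were followed at 9 rice loci. They were taken from a list of locus identifiers and not by a rule on their levels, although earlier results of these data were known. All 9 have a row in the deposited expression table, which holds 26715 loci. RNA was taken from leaves of seedlings raised on MS medium in a growth chamber kept at 32 °C, and each genotype is represented by 1 library. The mutant, *wlp2s*, came from an EMS-mutagenised population of the *japonica* variety Zhonghua11 and carries a base change in *WLP2* (LOC_Os01g63220), which encodes a fructokinase-like protein associated with the plastid-encoded RNA polymerase. The wild-type (WT) is Zhonghua11 itself. The comparison uses 1 mutant line, in which other EMS mutations cannot be told apart from that in *WLP2*. The sample title of the mutant names the gene and no allele, and the allele is taken from the column header of the expression table. The columns of another deposited table, not used here, carry the name wlp1 instead. Both genotypes shared the medium, the chamber and the temperature, so the comparison is between genotypes at 32 °C and holds no unheated plants. The study sequenced these leaves to ask whether nuclear gene expression is altered where reactive oxygen is raised in the mutant.

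Rboh proteins sit in the plasma membrane and pass electrons from cytosolic NADPH, through a flavin and haem groups, to oxygen outside the cell. The product is superoxide, which is converted to hydrogen peroxide in the cell wall. In plants their amino-terminal part binds calcium through EF-hands and is phosphorylated by calcium-dependent protein kinases, and in rice a Rac-type GTPase binds to it. They are known for the oxidative burst of immunity and for signalling in abscisic acid responses, wounding, root hairs and pollen tubes. In leaves, Arabidopsis RbohD supplies most of the immune burst, and Arabidopsis RbohF acts with it in defence and in guard cells.

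Counts summed to 9327778 in the *wlp2s* library and 9080323 in the WT library. No difference between the libraries has a replicate check, so none is given a p-value. RPKM is the count scaled to the length of the transcript model and to the total count of the library, and it was summed over the models of a locus. Intervals are exact 95% intervals for counting error only. *WLP2* itself stood at 9.10 RPKM in *wlp2s* and 6.61 RPKM in WT (1.38-fold higher, 1.09 to 1.74). A base change by itself sets no direction for this level. The label of the mutant library was not verified here, by this level or by the sequence of the gene. Of 92 loci described as leaf photosynthesis genes, 90 passed a level filter of 1 RPKM, reached in either library. The summed level of the 92 was 30484 RPKM in *wlp2s* and 32621 RPKM in WT. Of the 90, 13 had a ratio (*wlp2s* over WT) whose interval lay above 1, and 27 had one below it. Over all loci past the filter, the interval excluded 1 at 31.5%. Those loci were not matched in count to the photosynthesis loci, and the interval narrows as counts rise. The largest difference was at LOC_Os04g38410, light harvesting complex photosystem II subunit 6, at 145 RPKM in *wlp2s* and 364 RPKM in WT. Loci described by pollen or by root hairs had summed levels of 131 and 109 RPKM in *wlp2s*, against 123 and 119 RPKM in WT. Loci described as senescence-associated summed to 778 RPKM in *wlp2s* and 962 RPKM in WT. Most of that gap is LOC_Os03g54130, described as senescence-associated gene 12, at 140 RPKM in *wlp2s* and 320 RPKM in WT, and the other 20 loci summed to 639 RPKM in *wlp2s* and 642 RPKM in WT. The part of these loci in the levels below was not tested. No locus of these 4 lists was at 0 in both libraries, but the same held for every other list examined, so this does not set them apart. In whole leaves, fewer cells of a type and less RNA per cell cannot be told apart.

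The descriptions in the table name 5 of the 9 loci as respiratory burst oxidases and the others by their parts. LOC_Os11g33120 and LOC_Os01g25820 are both described as respiratory burst oxidase homologue D. LOC_Os01g53294 and LOC_Os05g45210 are both described as respiratory burst oxidase protein F. LOC_Os12g35610 is described as NADPH/respiratory burst oxidase protein D. LOC_Os08g35210 and LOC_Os09g26660 carry the name of the riboflavin synthase-like fold, the flavin-binding module of these enzymes. LOC_Os01g61880 and LOC_Os05g38980 carry the name of the ferric reductase-like transmembrane module, which holds the haems. The annotation term for an oxidoreductase that uses NAD(P)H and oxygen was given to 8 loci of the whole table, and all 8 are members. The member without that term is LOC_Os11g33120. It and LOC_Os05g45210 are the members that the table places in the KEGG map of plant-pathogen interaction. Flavin binding, iron binding and electron carrier activity were assigned to all 9 members. The plasma membrane and cell death terms were each given to the same 4 members, those described as homologue D or protein F. None of the 9 identifiers matched the available gene table by ID (0 of 9), so no symbol such as *Osrboh1* is assigned here. The letters D and F are used below only as they stand in these descriptions, not as rice gene symbols.

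LOC_Os11g33120 held more transcript than any other member in both libraries. It stood at 118 RPKM in *wlp2s* (interval 114 to 122) and at 96.7 RPKM in WT (93.1 to 100.4), which placed it 653rd and 826th among the 26715 loci of those libraries. Its counts were 3390.5 in *wlp2s* and 2703 in WT, a ratio of 1.22 (1.16 to 1.28). The intervals of the libraries do not overlap, and the difference of 0.29 in log2(RPKM + 1) is well inside the size limit of 1 used below. Its lead over the next member, LOC_Os01g61880, was 4.12-fold in *wlp2s* and 1.87-fold in WT.

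LOC_Os01g61880 was the next member in both libraries and differed most in RPKM. It stood at 28.7 RPKM in *wlp2s* (26.6 to 30.9) and at 51.7 RPKM in WT (48.9 to 54.6). Counts of 723.9 in *wlp2s* and 1271.2 in WT made it 1.80-fold lower (1.65 to 1.98), with a difference of -0.83. Among the 18639 loci past the level filter, 334 loci, or 1.79%, had a difference further below 0. The gap was -23.0 RPKM (*wlp2s* minus WT), close in size to the gap of 21.6 RPKM at LOC_Os11g33120 in the other direction.

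LOC_Os01g25820, the second member described as homologue D, had the largest proportional difference. It stood at 3.10 RPKM in *wlp2s* (2.52 to 3.77) and at 8.86 RPKM in WT (7.85 to 9.97). It is the only member whose counts were whole numbers in both libraries, with 100 counts in *wlp2s* and 278 counts in WT. It was lower in *wlp2s* by 2.86-fold (2.26 to 3.63), a difference of -1.27, and 87 of the 18639 loci (0.467%) lay further below 0. LOC_Os01g25820 thus had less transcript in *wlp2s* while the other homologue D locus had more.

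LOC_Os05g45210, a protein F locus, stood at 4.38 RPKM in *wlp2s* (3.71 to 5.15) and at 7.39 RPKM in WT (6.50 to 8.38). Its 149 counts in *wlp2s* and 244.5 counts in WT gave a level 1.69-fold lower (1.37 to 2.08), a difference of -0.64. The other protein F locus, LOC_Os01g53294, stood at 8.79 RPKM in *wlp2s* (7.68 to 10.004) and 10.2 RPKM in WT (8.95 to 11.5). Its intervals overlap, and the ratio of 0.865 has an interval of 0.721 to 1.04 that includes equal levels. A difference at LOC_Os01g53294 was therefore not detectable at this depth.

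Both riboflavin synthase-like members had ratios above 1. LOC_Os08g35210 stood at 24.7 RPKM in *wlp2s* (23.1 to 26.4) and 20.7 RPKM in WT (19.2 to 22.2), from 909.5 and 740.7 counts. Its ratio was 1.20 (1.08 to 1.32), and the intervals of the libraries do not overlap. LOC_Os09g26660 stood at 16.4 RPKM in *wlp2s* (15.1 to 17.8) and 15.5 RPKM in WT (14.2 to 17.0). Its ratio of 1.05 (0.933 to 1.19) includes equal levels.

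The last 2 members were near the limit of detection in leaves. LOC_Os05g38980 had 4.33 counts in *wlp2s* and 5.93 counts in WT (0.150 and 0.211 RPKM), so its ratio of 0.711 has an interval from 0.156 to 2.94. LOC_Os12g35610 had 0.5 counts in *wlp2s* and 1 count in WT, both under the floor of 3 counts, which corresponds to 0.0994 RPKM in *wlp2s* and 0.102 RPKM in WT. No ratio is given for it.

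**Figure D1:**
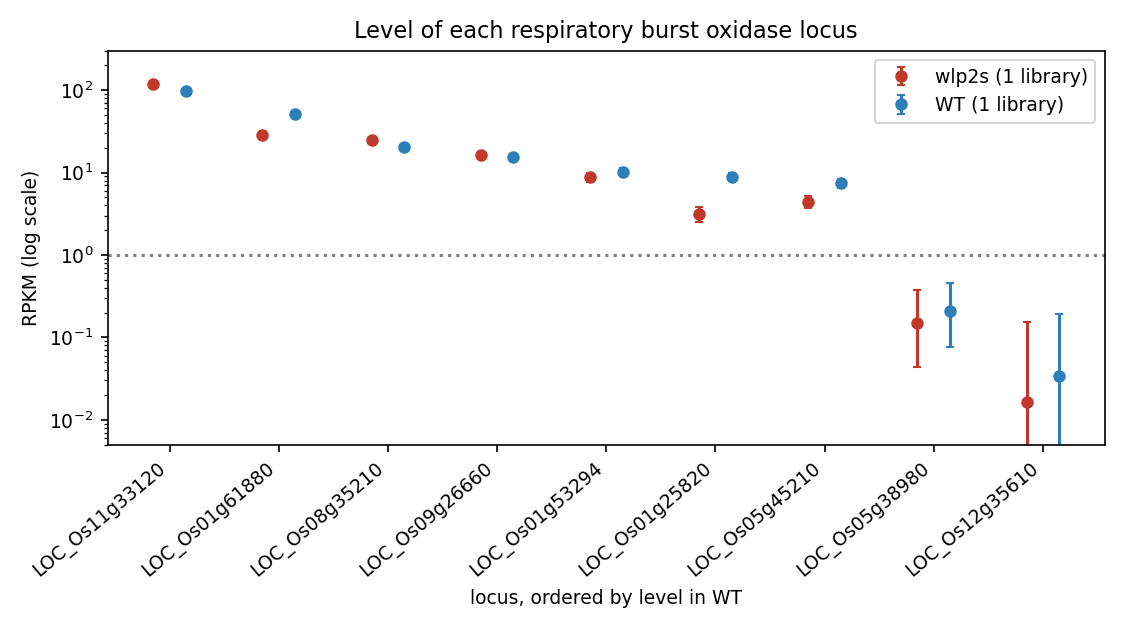
RPKM of the 9 respiratory burst oxidase loci (vertical axis, log scale) in the 1 library of *wlp2s* (red) and the 1 library of WT (blue), with bars for the exact 95% counting interval and a dotted line at 1 RPKM. LOC_Os11g33120 is highest in both, 7 loci lie above the line, and the red points of LOC_Os01g61880, LOC_Os01g25820 and LOC_Os05g45210 lie below the blue ones with no overlap of bars.

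The order of levels was the same for the first 5 members in both libraries. From the top it ran LOC_Os11g33120, LOC_Os01g61880, LOC_Os08g35210, LOC_Os09g26660 and LOC_Os01g53294. In *wlp2s* each of these 5 was separated from the next by counting intervals that did not overlap. In WT the first 4 were separated in that way, and the intervals of LOC_Os01g53294 and LOC_Os01g25820 overlapped. LOC_Os05g45210 stood above LOC_Os01g25820 in *wlp2s* and below it in WT, and the intervals of these neighbours overlapped within each library. Their ratio of counts, LOC_Os01g25820 over LOC_Os05g45210, was lower in *wlp2s* by a factor of 1.70 (1.24 to 2.33), an interval that excludes no difference. These loci do not share a description, and the interval makes no allowance for how the pair was chosen. LOC_Os05g38980 and LOC_Os12g35610 were lowest and could not be separated from each other.

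As shares of the summed RPKM of the 9 loci, LOC_Os11g33120 held 57.8% in *wlp2s* and 45.8% in WT. By counts its share was 56.0% in *wlp2s* (54.7 to 57.2) and 45.0% in WT (43.7 to 46.3). LOC_Os01g61880 held 14.0% of the RPKM in *wlp2s* and 24.5% in WT. These 2 loci together made up 71.9% in *wlp2s* and 70.2% in WT, so the part held by the pair was similar while its split was not. LOC_Os08g35210 held 12.1% in *wlp2s* and 9.79% in WT, and LOC_Os09g26660 held 8.02% and 7.36%. LOC_Os01g25820 held 1.52% in *wlp2s* and 4.19% in WT. LOC_Os01g53294 and LOC_Os05g45210 held 4.29% and 2.14% in *wlp2s*, against 4.81% and 3.50% in WT. If only the highest model of each locus is taken in place of the sum, LOC_Os11g33120 remains first with 41.6% in *wlp2s* and 33.4% in WT.

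**Figure D2:**
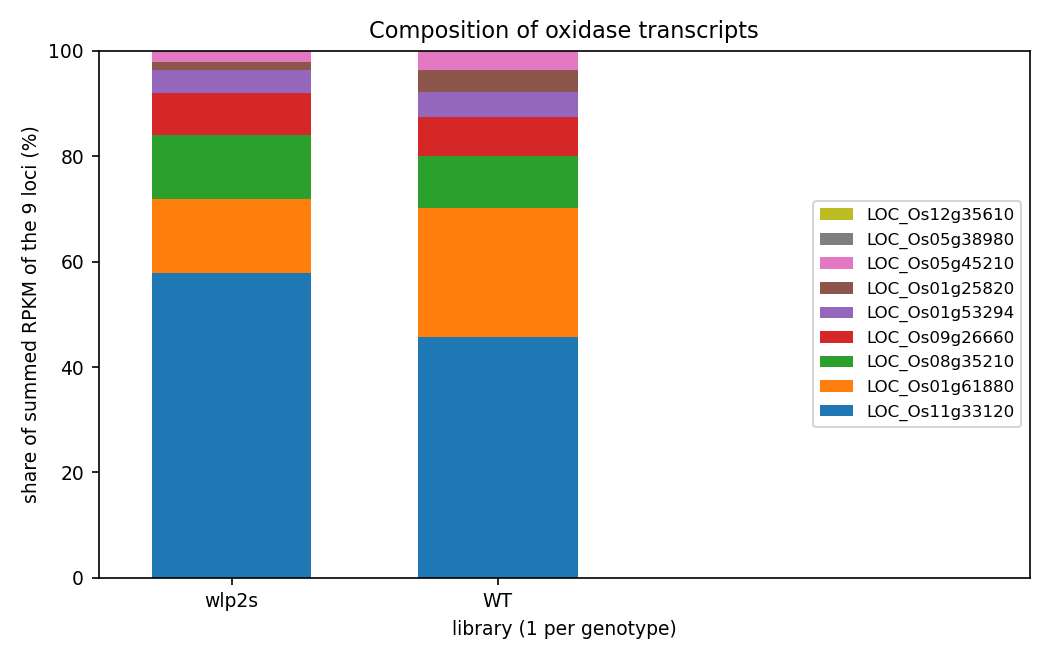
Share of the summed RPKM of the 9 loci (vertical axis, percent) held by each locus in the 1 library of *wlp2s* (left bar) and the 1 library of WT (right bar). The blue segment at the base, LOC_Os11g33120, takes 57.8% in *wlp2s* and 45.8% in WT, and the orange segment above it, LOC_Os01g61880, takes 14.0% and 24.5%.

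Summed over the family, the libraries were close to each other. The 9 loci had 6056.6 counts in *wlp2s* and 6009.1 counts in WT, a ratio of 0.981 (0.947 to 1.02) that includes equal levels, and their summed RPKM was 205 in *wlp2s* and 211 in WT. Without LOC_Os11g33120 the summed counts were 0.785 of WT (0.746 to 0.826), and without LOC_Os01g61880 they were 1.10-fold higher than in WT (1.05 to 1.14). The near equality of the sums therefore rests on opposite differences at these loci.

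By the size rule, a difference of at least 1 in log2(RPKM + 1) either way, 1 of the 7 members past the level filter was lower in *wlp2s* and 0 were higher. The member is LOC_Os01g25820. Over all 18639 loci past the same filter, 2.8% met the rule in either direction and 1.01% were lower in *wlp2s*. Of the 7 members, 5 had a ratio whose counting interval excludes 1, with 2 above it and 3 below it. That criterion was met by 31.5% of all loci past the filter, with 3002 loci above 1 and 2868 loci below it. A counting interval narrows as counts rise, and these loci were not matched to the members in count. The shares are therefore not directly comparable. The median difference was -0.19 over the 7 members and 0.00181 over all loci past the filter. LOC_Os01g25820 fails the size rule with a pseudocount of 5, where its difference is -0.77. Without a pseudocount its difference is -1.51.

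**Figure D3:**
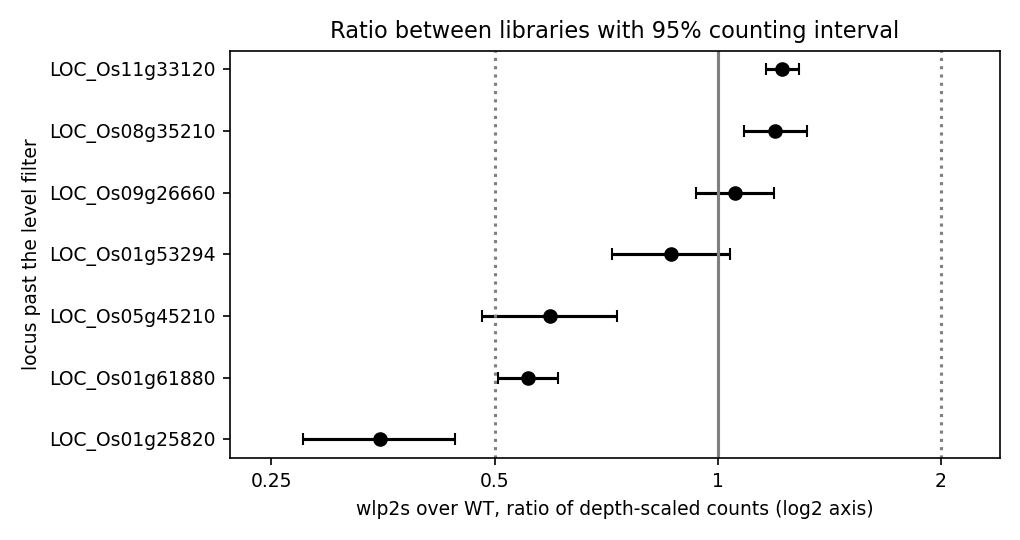
Ratio of depth-scaled counts, *wlp2s* over WT (horizontal axis, log2 spacing), for the 7 oxidase loci past the level filter, with bars for the exact 95% counting interval. The solid line marks equal levels and the dotted lines a doubling or halving; LOC_Os01g25820 lies at 0.350 with its whole interval below 0.5, and LOC_Os11g33120 lies highest at 1.22.

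**Figure D4:**
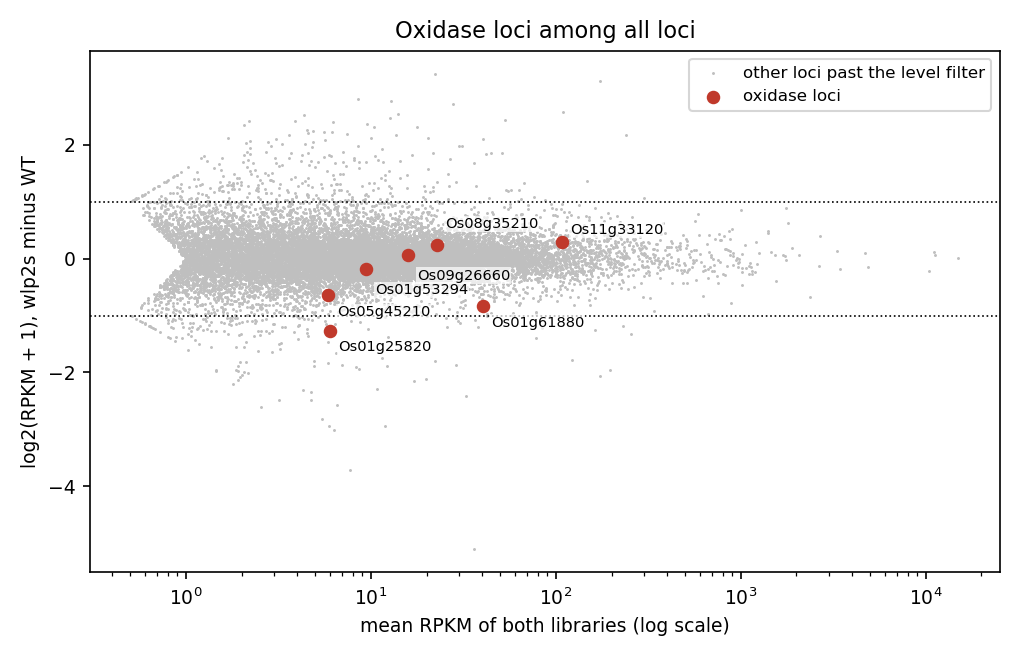
Difference in log2(RPKM + 1), *wlp2s* minus WT (vertical axis), against the mean RPKM of both libraries (horizontal axis, log scale) for the 18639 loci past the level filter, with the 7 oxidase loci in red and the others in grey. Dotted lines mark the size rule, and LOC_Os01g25820 at -1.27 is the oxidase locus beyond it.

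Members with the same description were compared within the libraries, as the ratio of their counts. The ratio of LOC_Os01g25820 to LOC_Os11g33120 was lower in *wlp2s* by a factor of 3.49 (2.75 to 4.45), and the second locus exceeded the first by 38.1-fold in RPKM in *wlp2s* and by 10.9-fold in WT. The ratio of LOC_Os05g45210 to LOC_Os01g53294 was lower in *wlp2s* by a factor of 1.46 (1.10 to 1.93). The ratio of LOC_Os09g26660 to LOC_Os08g35210 was 0.883 of that in WT (0.754 to 1.03), an interval that includes no difference. The few counts of LOC_Os05g38980 do not allow such a comparison with LOC_Os01g61880. These ratios need no scaling to depth, but they still rest on 1 library per genotype.

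The loci next to the members were examined by locus number, 3 on either side. Of the 36 pairs of members, 3 pairs shared at least 1 described neighbour family, and each of these is a pair with the same description. LOC_Os01g61880 on chromosome 1 and LOC_Os05g38980 on chromosome 5 shared 3, namely a CCT motif protein, a KIP1-like kinase-interacting protein and a Ypt/Rab-GAP domain protein. LOC_Os01g53294 and LOC_Os05g45210, again on chromosomes 1 and 5, shared ribosomal protein L20 and UDP-glucosyl transferase 88A1. LOC_Os08g35210 and LOC_Os09g26660, on chromosomes 8 and 9, shared a dormancy/auxin associated protein. The homologue D loci on chromosomes 11 and 1 shared none. Of the 6 loci flanking LOC_Os01g25820, 3 are described as LRR and NB-ARC disease resistance proteins and 2 carry no description. Coordinates are not given because the genome build is not given in the sources used here.

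The difference at LOC_Os01g25820 did not extend to its neighbours. Of its 6 flanking loci, 4 passed the level filter, and their differences ran from -0.19 to 0.11. The 6 flanking loci of LOC_Os01g61880 all passed, with differences from -0.29 to 0.21. At LOC_Os11g33120, itself higher in *wlp2s*, the 4 flanking loci past the filter had differences from 0.08 to 1.11. The largest, at LOC_Os11g33110, rests on 9 counts in *wlp2s* and 0 counts in WT. At LOC_Os08g35210, also higher, the 3 past the filter ran from 0.000844 to 0.86. Whether differences at these members are shared by their region was not tested. Over all 9 members, 37 of 54 flanking loci passed the filter, 2 were higher by the size rule and 0 were lower. Among all loci past the filter, 2.8% met the rule in either direction.

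Transcript models of a locus gave the same direction. The 3 models of LOC_Os11g33120 had ratios of 1.21, 1.27 and 1.21, and the share of its counts assigned to model 2, the shortest at 2444 bases, was 17.5% in *wlp2s* and 16.8% in WT. The models of LOC_Os01g61880, 2900 and 2525 bases long, were 1.84-fold and 1.77-fold lower. The models of LOC_Os01g25820 were 2.87-fold and 2.85-fold lower, and those of LOC_Os05g45210 were 1.78-fold, 1.69-fold and 1.61-fold lower. Reads that fit several models had been divided between them, so these values are not independent of each other. At 8 of the 9 members a count in at least 1 library was a fraction (tolerance 0.001), against 39.0% of all loci past the filter. The 8 members include LOC_Os05g38980 and LOC_Os12g35610, which did not pass that filter. The summed counts of the 9 loci were not whole in either library, so some of their reads were divided with loci outside the family.

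Genes of the surrounding pathway were examined as lists found by description, 14 in all, of which 13 had a locus past the filter. Of their 207 loci, 13 were higher and 7 were lower by the size rule, and 16 of these are class III peroxidases. Calcium-dependent protein kinases, which phosphorylate Rboh proteins, had 0 of 21 loci past the size rule and a median difference of -0.10. LOC_Os04g49510, calmodulin-domain protein kinase 5, had the highest level among them, at 82.9 RPKM in *wlp2s* and 103 RPKM in WT. The CBL calcium sensors and their CIPK kinases, which activate an oxidase in Arabidopsis, had 0 of 33 and a median of -0.20. LOC_Os07g05620, CBL-interacting protein kinase 23, differed most among those of at least 5 RPKM on average, at 98.3 RPKM in *wlp2s* and 57.7 RPKM in WT (1.70-fold higher, 1.58 to 1.84). The ROP/RAC GTPases, which bind the amino-terminal part of Rboh proteins, had 0 of 5 and a median of -0.01. LOC_Os02g58730, RAC-like 3, stood highest at 46.0 RPKM in *wlp2s* and 51.8 RPKM in WT. By comparison, 2.8% of all loci past the filter met the rule and their median was 0.00181.

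The MAP kinase cascade had 0 loci higher and 1 lower of 40, with a median of -0.03. Of the 40, 10 had a ratio whose counting interval lay above 1 and 9 had one below it. LOC_Os02g04230, MAP kinase 9, differed most among those of at least 5 RPKM on average, at 13.4 RPKM in *wlp2s* and 7.65 RPKM in WT. It was 1.75-fold higher (1.42 to 2.16) and has divided reads. LysM proteins and co-receptors of pattern recognition had 2 higher and 0 lower of 10, with a median of 0.24, and with a pseudocount of 5 neither of the 2 passed the rule. Phospholipase D, whose product phosphatidic acid binds Arabidopsis RbohD, had 0 of 8 past the rule and a median of -0.03. The search for PBS1-type cytoplasmic kinases found 0 loci.

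The enzymes that supply NADPH had 0 of 16 loci past the size rule, with a median of 0.00614. LOC_Os01g52500, NADP-malic enzyme 4, stood highest at 198 RPKM in *wlp2s* and 197 RPKM in WT. Superoxide dismutases, which turn superoxide into hydrogen peroxide, had 0 of 7, with a median of 0.12. LOC_Os03g22810, copper/zinc superoxide dismutase 1, stood at 440 RPKM in *wlp2s* and 380 RPKM in WT (1.16-fold higher, 1.11 to 1.21). Catalases and ascorbate peroxidases, which remove hydrogen peroxide, had 0 of 3 and 0 of 10, with medians of 0.12 and -0.05. LOC_Os02g02400, a catalase 2 locus, stood at 323 RPKM in *wlp2s* and 248 RPKM in WT. Class III peroxidases, which use or produce hydrogen peroxide in the cell wall, had 11 higher and 5 lower of 50, with a median of 0.48. LOC_Os04g59200, the highest of them, stood at 212 RPKM in *wlp2s* and 81.3 RPKM in WT (2.61-fold higher, 2.43 to 2.80). Of the 50 loci, 32 have divided reads. Among the 18 with whole-number counts, 1 was higher and 2 were lower, with a median of -0.05. By the size rule, the excess of higher loci therefore lay among loci with divided reads. A locus counts as divided if its count is not whole, however few of its reads were divided. The part of read division in this excess was not tested. The ferric reduction oxidases, relatives of Rboh proteins that reduce iron with the same kind of haem and flavin modules, had 0 of 2 past the rule and a median of -0.50. LOC_Os04g48930, ferric reduction oxidase 1, had 13 counts in *wlp2s* and 42 counts in WT, 3.32-fold lower (1.75 to 6.74), and it passes the rule without a pseudocount. It was singled out after its values were seen. LOC_Os04g36720, the ferric reduction oxidase 7 locus, stood at 443 RPKM in *wlp2s* and 478 RPKM in WT, far above LOC_Os11g33120 in both libraries.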

How the data were processed

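TopHat, Cufflinks and Cuffdiff are named in the submitters' processing notes. Their versions, the genome build and the counting tool are not given in the sources used here. The authors deposited estimated counts per transcript model, not normalized and in part fractions, with RPKM beside them. Lengths worked back from count, RPKM and total count were whole to 0.01 base at all 34890 models with a WT count above 0, of 36450. A second table holds the authors' own comparison (fold change, P and FDR) and 4 repeated value columns, and was not used.

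Models were summed per locus. Differences of log2(RPKM + 1) were taken as *wlp2s* minus WT, over loci that reached 1 RPKM in either library, with a size rule of 1. Ratios of depth-scaled counts have exact (Clopper-Pearson) 95% intervals, and levels exact Poisson intervals. Ratios between members used counts rounded to whole numbers and conditional odds ratios. Intervals and the floor of 3 counts cover counting error only. Reads carry no molecular identifiers. With 1 library per genotype no test was made. The members and lists were chosen with earlier results of these data known, and search words were adapted to the wording of the descriptions. All members were named. The rule also picks, per list, the locus of highest mean RPKM and that with the largest difference at a mean of at least 5 RPKM, and a selection of these is given. The result of 1 of the 14 lists is not reported here, and the totals over the lists include it. Procedures were tested on simulated data. Python 3.11.15, numpy 2.4.6, pandas 2.3.3, scipy 1.17.1 and matplotlib 3.10.9 were used.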

Additional observations from a re-analysis of the deposited data

How the results depend on the processing

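LOC_Os01g25820 was lower in *wlp2s* under every setting tried, with differences from -1.51 (no pseudocount) to -0.77 (pseudocount of 5). The pseudocount of 5 left 0 members past the size rule, and a size limit of 1.5-fold gave 3. The share of LOC_Os11g33120 was 41.6% in *wlp2s* and 33.4% in WT with the highest model of each locus, and 56.0% in *wlp2s* by counts. The summed ratio was 1.10 without LOC_Os01g61880 and 0.785 without LOC_Os11g33120. The other 6 members past the filter kept their direction under all settings. Over all loci, 333 were higher and 189 lower, against 779 and 497 with a pseudocount of 0.1, 81 and 39 with 5, 831 and 553 with none, 187 and 82 with an RPKM of at least 5, and 1222 and 783 at 1.5-fold. Of 129 list counts under alternatives, 108 were within 1.5 times the original count and 21 were not. With whole-number counts only, class III peroxidases had 1 higher and 2 lower of 18 (median -0.05), against 11 and 5 of 50 (median 0.48). LysM proteins and co-receptors had 0 past the rule with a pseudocount of 5 or a filter of 5 RPKM, and 1 with CPM or whole-number counts only, against 2. The single MAP kinase call was lost with a pseudocount of 5 or a filter of 5 RPKM. The ferric reduction oxidases had 1 lower with CPM, with a pseudocount of 0.1, with none and at 1.5-fold. Omission of the pseudocount, the KEGG list and the sums without LOC_Os01g61880, LOC_Os11g33120 or LOC_Os03g54130 were chosen after seeing the data. Rescaling by the median ratio of 0.9997 changed no call. No paired analysis was possible because each genotype has 1 library, and for the same reason no library could be left out. At these depths, ratios of LOC_Os05g38980 and LOC_Os12g35610 could not be resolved.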

Other observations

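Of 75 other loci in the KEGG map of plant-pathogen interaction, which holds LOC_Os11g33120 and LOC_Os05g45210, 65 passed the level filter. Of these 65, 2 were higher and 0 were lower in *wlp2s* by the size rule, and their median difference was 0.04. Over all loci past the filter, 2.8% met the rule in either direction and the median was 0.00181. The locus of this map with the largest difference among those of at least 5 RPKM on average was LOC_Os01g72530, a calcium-binding EF-hand protein with divided reads, at 34.6 RPKM in *wlp2s* and 8.86 RPKM in WT (3.91-fold higher, 3.05 to 5.05).

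The annotated loci closest to LOC_Os01g25820 in level over the 2 libraries, by Euclidean distance of log2(RPKM + 1), were LOC_Os01g65880 (distance 0.0908), LOC_Os05g37520 (0.124) and LOC_Os10g09990 (0.171). They are described as a nodulin MtN3 family protein, a TPR-like superfamily protein and a don-glucosyltransferase. LOC_Os01g65880 stood at 3.19 RPKM in *wlp2s* and 8.29 RPKM in WT. LOC_Os05g37520 stood at 3.25 RPKM in *wlp2s* and 8.12 RPKM in WT. LOC_Os10g09990 stood at 2.65 RPKM in *wlp2s* and 9.11 RPKM in WT.

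Among the MAP kinase cascade, LOC_Os02g21700, described as MAP kinase kinase kinase 15, had 2 counts in *wlp2s* and 27 counts in WT, a ratio of 0.0721 (0.00831 to 0.287). Among the co-receptors, LOC_Os11g31540, described as somatic embryogenesis receptor-like kinase 1 and with divided reads, had 37.5 counts in *wlp2s* and 2 counts in WT, a ratio of 18.3 (4.71 to 156). LOC_Os11g34570, described as a LysM domain GPI-anchored protein, had 15 counts in *wlp2s* and 3 counts in WT, a ratio of 4.87 (1.38 to 26.2). These 3 were singled out after their values were seen.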
